A study of Mus musculus with 10 samples.

Results

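Interleukins are secreted proteins by which blood and immune cells signal to one another, and their receptors sit on the responding cells. The genes described here are those whose symbol is Il followed by a digit and that had at least 10 reads over the 10 libraries, and they number 46 of the 24015 genes in the table. A total of 83 symbols matched the pattern. Of these, 66 had at least 1 read, 17 had none and 37 fell under the minimum of 10 reads. Just inside the minimum were Il4i1 with 23 reads and Il17f with 25, and just outside it was Il11 with 9. The pattern also takes in 2 genes that encode no interleukin or receptor, Il4i1, which encodes an amino acid oxidase, and Il1bos, an RNA from the strand opposite to Il1b.

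RNA was sequenced from MAF9 cells, which are C57BL/6 mouse bone marrow cells made leukemic by retroviral transduction with the fusion gene MLL-AF9. All groups shared this fusion, medium with 15% serum and 10 ng/ml of IL-3, and 4 days of treatment at half-inhibitory doses whose concentrations the labels do not give. The conditions were DMSO (mock), MM-401, which blocks the binding of MLL1 to WDR5, EPZ5676 (EPZ in the labels), which inhibits the methyltransferase DOT1L, MI-2-2 (MI), which blocks MENIN, a binding partner of MLL1 and its fusions, and iBET, a further small-molecule inhibitor. Each condition had 2 libraries that the series calls biological duplicates, with nothing said of separate animals or transductions, so p-values measure the spread between these libraries only. The cells serve as a model of leukemic myeloid progenitors grown on IL-3, with the fusion integrated by a virus and not expressed from its own locus.

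Interleukin receptors fall into a few families. Receptors of the IL-1 family (for IL-1, IL-18, IL-33 and IL-36) signal through MYD88 and IRAK kinases to NF-kB, and decoy receptors, binding proteins and the antagonist IL-1RN hold that pathway back. Most of the others are type I or type II cytokine receptors, which share chains such as the common gamma chain (Il2rg), gp130 (Il6st) or the beta chains of the IL-3 receptor, and signal through JAK kinases and STAT factors. In myeloid cells, neutrophils are known for making IL-1RN and the decoy receptor IL-1R2, and macrophages for making IL-1 and IL-18.

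Library totals lay between 20394762 and 29473127 reads, and the 46 genes took between 0.0843% and 0.228% of them. The share was 0.192% to 0.228% in the EPZ5676 and MI-2-2 libraries and 0.0843% to 0.122% in the other 6. The DMSO libraries stood apart from one another. DMSO replicate 2 held 3630 reads on Y-linked genes, against 0 to 2 in the other 9 libraries, and Xist, the RNA of the inactive X chromosome, stood at 4.65 CPM (reads relative to the TMM-scaled library total) there, against 1026 to 2818 elsewhere. This is the pattern of male cells in DMSO replicate 2 and of female cells in the other 9 libraries. The labels do not name the animal or transduction of any library. In values against DMSO replicate 2 alone, the inhibitor and the origin of the library cannot be told apart. Fits with both DMSO libraries hold this library in the DMSO group, so its origin also enters their values against DMSO. Between the DMSO libraries 14.7% of the tested genes and 15 of the 37 tested interleukin genes (40.5%) differed by more than 2-fold. No interleukin gene did so within MM-401 or EPZ5676, where 1.04% and 3.04% of the tested genes did. Within MI-2-2 and within iBET 3 did (8.11%), where 3.55% and 1.19% of the tested genes did. For interleukin genes, results against DMSO were therefore also computed with each DMSO library left out in turn, and many of these are given below. In those fits the single DMSO library is assumed to vary like the other conditions. The low-count filter keeps 40 interleukin genes without DMSO replicate 2 and 41 without DMSO replicate 1. Marker and pathway genes with other names are given from the fit of all 10 libraries only, so their values were not checked in this way.

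Progenitor genes were read in every condition, in differing proportions. The summed level of 7 myeloid progenitor markers (Kit, Mpo, Elane and others) was 9211 to 12750 CPM in DMSO and 10071 to 10394 with MM-401. It was 2811 to 3053 with EPZ5676, 1800 to 2452 with MI-2-2 and 5389 to 6214 with iBET. Most of the iBET sum was Ctsg (mean 3520 CPM, against 1933 in DMSO) and Prtn3 (1657 against 2228). Mean levels of Mpo (15.4 against 2602 CPM), Elane (561 against 4102) and Kit (43.3 against 113) were lower with iBET. The mean of Flt3 (2.89 against 0.715) was higher. In DMSO replicates 1 and 2 Mpo stood at 386 and 4817 CPM and Elane at 4195 and 4009. Kit stood there at 45.9 and 180 CPM and Flt3 at 0.0389 and 1.39. Kit with iBET, at 41.8 and 44.8 CPM, was near DMSO replicate 1, so its lower mean came mostly from DMSO replicate 2. Flt3 had 0 reads with EPZ5676 and with MI-2-2. The sum over 7 detected neutrophil markers of a list of 8 (Ltf, Camp, Ngp, S100a8 and others) was 628 to 3456 CPM in DMSO, 4390 to 5755 with MM-401, 47627 to 64859 with EPZ5676, 42795 to 43311 with MI-2-2 and 473 to 1107 with iBET. The sum over 8 of 9 macrophage markers was 62.7 to 77.6 CPM in DMSO and 88.0 to 101 with MM-401. It was 257 to 453 over the EPZ5676 and MI-2-2 libraries and 71.0 to 107 with iBET. The lists for other blood cells were lower in each library, with 1 exception. In DMSO replicate 2 the mast cell and basophil sum (131 CPM) was above the macrophage sum (62.7 CPM). The T cell sum (6 of 7 markers found) was 1.61 to 4.98 CPM over the 10 libraries and in DMSO came mostly from Lck, with Cd3e and Cd8a at 0 throughout. Cd3d, with 144 reads in all, was nonetheless 15.1-fold higher with EPZ5676 (adjusted p = 0.0196) and 15.8-fold higher with MI-2-2 (adjusted p = 0.0164) than in DMSO. The B cell sum (5 markers) was 2.92 to 3.5 CPM in DMSO, 7.96 to 8.24 with EPZ5676 and 0.133 to 0.459 with iBET, with Ms4a1 and Pax5 at 0, and most of it in DMSO and with EPZ5676 was Cd79b, which rose with EPZ5676 (log2 1.22, adjusted p = 0.0205) and fell with iBET (-4.56, adjusted p = 0.00195). The NK cell sum was at most 0.243 CPM. The mast cell and basophil sum (9 markers, of which Fcer1a, Prss34, Tpsb2 and Cma1 were at 0) was 31.5 and 131 CPM in the DMSO libraries and 20.5 to 52.6 in the others. Hdc, at 14.1 and 118 CPM, made most of that difference between the DMSO libraries, and Mcpt8 and Ms4a2 were also read in all libraries. The eosinophil sum (5 of 6) was 12.4 to 13.6 CPM in DMSO, 9.30 to 10.8 with MM-401 and 29.0 to 31.3 with EPZ5676. It was 20.7 to 20.9 with MI-2-2 and 0.918 to 0.972 with iBET, and most of it was Siglec5. Epx, Prg2 and Prg3 went the other way, with 4, 18 and 17 reads in DMSO and 1, 8 and 3 with EPZ5676. With MI-2-2 they had 0, 3 and 0 reads. Ccr3 had 21 reads in DMSO, 7 with EPZ5676 and 31 with MI-2-2. The neutrophil and macrophage sums and Siglec5 moved with the changes described below for EPZ5676 and MI-2-2. The B cell sum and Siglec5 moved with those for iBET. Their part in those changes was not tested. In bulk RNA, fewer cells of a type and less RNA per cell cannot be told apart.

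The filter on low counts left 37 of the 46 genes for the test. The other 9 were Il17d, Il17f, Il17rb, Il17rc, Il17re, Il1bos, Il1rl1, Il23a and Il4i1. Of the 37, 24 had a mean of at least 5 CPM in a condition and were called, that is, had an adjusted p below 0.05, in at least 1 of the 8 comparisons. Another 5 were called at lower levels, 7 had at least 5 CPM and no call, and Il31ra had neither. Per kilobase of exon, the mean level in DMSO was highest for the decoy receptor gene Il1r2 (46.3 CPM per kilobase), followed by Il10rb (43.7) and Il2rg (39.8). The 2 DMSO libraries were at 87.3 and 5.24 CPM per kilobase of Il1r2, so its place in that order was within their spread. With MI-2-2 the per-kilobase order was Il1r2 (219), Il1rn (135) and Il1f9 (125). Il4i1, which was not tested, shares 87.4% of its exon bases with Tbc1d17 on the opposite strand in GENCODE M21. Reads of Il2rg, Il10rb, Il12rb2, Il16, Il1a and Il27 are less certain than those of the other tested genes, because 43.6%, 30.8%, 40.04%, 22.5%, 11.2% and 10.1% of their exon bases, respectively, overlap another gene there.

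**Figure D1:**
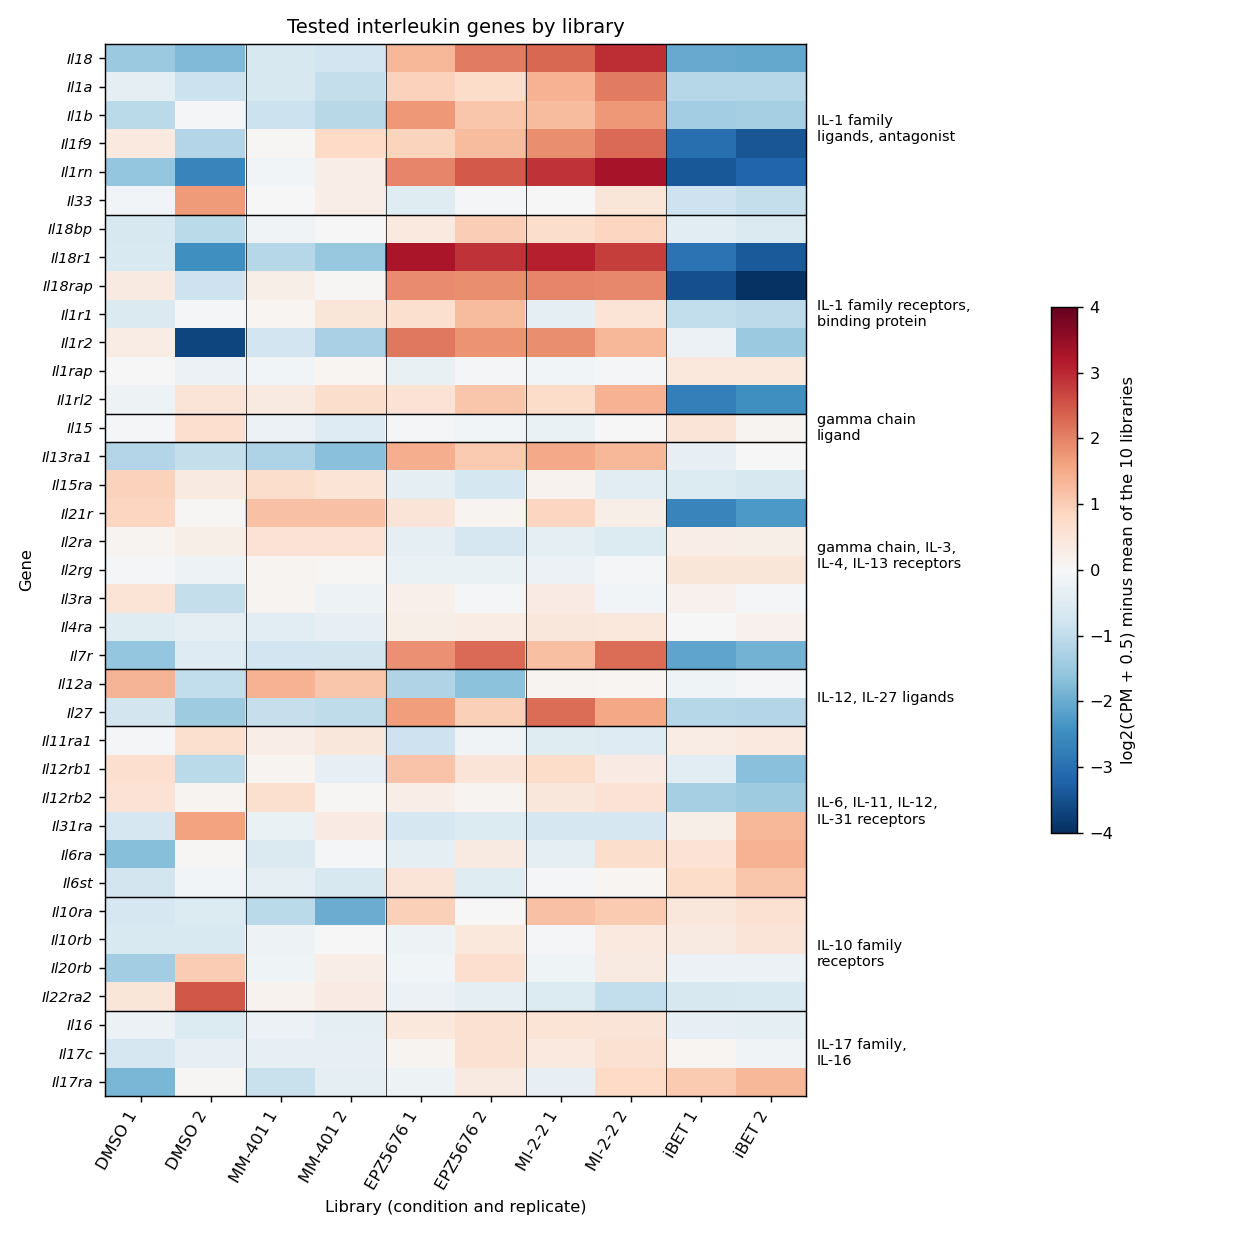
The color gives the log2(CPM + 0.5) of each of the 37 tested interleukin genes (rows, grouped by role) in each of the 10 libraries (columns), minus the gene's mean over the libraries. Il1rn, Il18, Il18r1 and Il18rap are red in the 4 EPZ5676 and MI-2-2 libraries and blue with iBET, Il1rap is reddest with iBET, and the 2 DMSO columns differ in many rows, Il1r2 the most.

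The first question was which interleukin genes changed when DOT1L or MENIN was inhibited. Relative to DMSO, 20 of the 37 were called with EPZ5676, 16 higher and 4 lower. Among all 12971 genes tested the share called was 38.1%, with 18.7% higher and 19.4% lower. MI-2-2 also gave 20 calls, 16 higher and 4 lower, where the share of all genes was 41.4%, with 20.2% higher and 21.2% lower. The median log2 fold change over the 37 was 0.73 with EPZ5676 and 0.84 with MI-2-2, and over all tested genes it was -0.06 and -0.05. Both comparisons use the same DMSO libraries. Without DMSO replicate 2 the calls were 22 (19 higher, 3 lower) and 23 (20 higher, 3 lower), where 35.5% (18.9% higher, 16.6% lower) and 37.6% (20.4% higher, 17.2% lower) of all genes were called. Without DMSO replicate 1 they were 23 (16 higher, 7 lower) and 25 (19 higher, 6 lower), where 51% (25.5% in each direction) and 53.9% (27% higher, 26.9% lower) of all genes were called.

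With iBET, 16 of the 37 were called, 6 higher and 10 lower, where 13.9% of all genes were called, 6.38% higher and 7.54% lower. The median log2 fold change was -0.21 over the 37 and -0.04 over all genes. Without DMSO replicate 2 there were 18 calls, 8 higher and 10 lower, where 21.6% of all genes were called (9.76% higher, 11.9% lower). Without DMSO replicate 1 there were also 18, 7 higher and 11 lower, where 27.9% were called (13.9% in each direction). The iBET calls rest on both iBET libraries: leaving out either one left 3 calls, the falls of Il18rap, Il1rl2 and Il21r. With MM-401 no interleukin gene passed an adjusted p of 0.05 in edgeR, and none of the 12971 genes did (0%). The count at an unadjusted p under 0.05 was 6 of 37, or 16.2%, against 11.2% of all genes, and DESeq2 called 1.

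**Figure D2:**
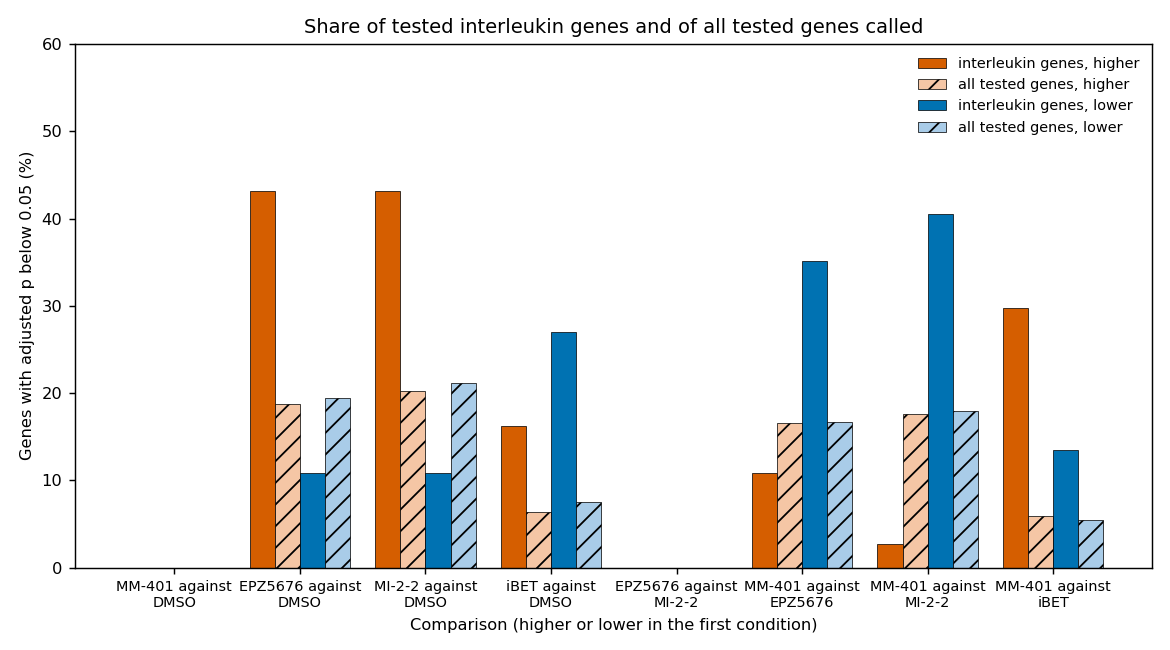
Bars give the percent of the 37 interleukin genes (solid) and of all 12971 tested genes (hatched) with an adjusted p below 0.05, split into higher (orange) and lower (blue) in the first-named condition, for the 8 comparisons. For EPZ5676 and MI-2-2 against DMSO the solid orange bars stand at 43.2% and the hatched orange ones at 18.7% and 20.2%, and no bar is seen for MM-401 against DMSO or EPZ5676 against MI-2-2, where 0% of interleukin genes and 0% and 0.0154% of all genes were called.

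The called differences from DMSO beyond 4 on the log2 scale were all in the IL-1 family (Il18, Il1rn and Il18r1 with EPZ5676 and MI-2-2, and Il33 with iBET). Promoter sequences are shown for Il1rn and for the genes of IL-18 and its receptor chains, which rose with both inhibitors, from RefSeq on GRCm38.p6, each running from 250 bases before the first listed start site to 50 after it. Capitals mark a match to a searched motif.
Il1rn, chr2:24336610-24336909, plus strand: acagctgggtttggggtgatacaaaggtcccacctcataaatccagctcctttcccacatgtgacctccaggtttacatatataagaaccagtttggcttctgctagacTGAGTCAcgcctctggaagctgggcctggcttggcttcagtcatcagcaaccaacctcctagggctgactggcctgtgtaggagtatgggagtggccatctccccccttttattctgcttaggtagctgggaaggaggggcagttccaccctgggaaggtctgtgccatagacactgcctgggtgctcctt
Il18, chr9:50554450-50554749, plus strand: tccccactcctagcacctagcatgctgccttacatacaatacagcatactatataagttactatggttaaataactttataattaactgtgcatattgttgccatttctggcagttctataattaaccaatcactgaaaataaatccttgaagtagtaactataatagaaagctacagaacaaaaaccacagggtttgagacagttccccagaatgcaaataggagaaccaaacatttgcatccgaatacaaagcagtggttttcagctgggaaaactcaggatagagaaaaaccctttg
Il18r1, chr1:40465302-40465601, plus strand: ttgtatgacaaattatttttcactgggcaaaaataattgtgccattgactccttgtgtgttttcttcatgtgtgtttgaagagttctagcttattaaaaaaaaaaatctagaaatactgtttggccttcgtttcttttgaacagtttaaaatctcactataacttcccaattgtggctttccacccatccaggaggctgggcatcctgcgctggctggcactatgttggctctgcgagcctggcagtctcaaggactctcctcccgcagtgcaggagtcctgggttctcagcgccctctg
Il18rap, chr1:40515112-40515411, plus strand: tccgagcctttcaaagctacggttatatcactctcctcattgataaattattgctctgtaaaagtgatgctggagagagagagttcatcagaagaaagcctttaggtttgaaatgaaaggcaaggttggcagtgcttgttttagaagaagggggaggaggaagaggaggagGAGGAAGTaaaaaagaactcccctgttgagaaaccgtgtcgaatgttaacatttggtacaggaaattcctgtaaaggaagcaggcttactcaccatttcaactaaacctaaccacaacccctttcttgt
The motifs searched on both strands were the core letters bound by C/EBP factors (TTGCNNAA), PU.1 (GAGGAAGT), AP-1 (TGANTCA), IRF factors (GAAA, any 2 bases, GAAA), NF-kB (GGGA, any base, TTTCC) and MEIS factors (TGACAG). The AP-1 letters stood at bases -141 to -135 of the Il1rn promoter and the PU.1 letters at -79 to -72 of that of Il18rap. The other 2 sequences shown held none of the 6. Il1rn and Il18r1 each had 3 listed promoters, of which only the first is shown and described here. The table had 50 promoters for 38 of the 46 genes. Of these, 9 (18.0%) held the C/EBP letters, where 10.8% of all 32851 promoters did, 12 (24.0%) the MEIS letters (19.2% of all), 5 (10.0%) the AP-1 letters (7.81%), 2 (4.0%) the PU.1 letters (3.2%), and 1 (2.0%) each the IRF (3.44%) and NF-kB letters (0.411%). A match describes the letters only.

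Among the ligands of the IL-1 family, 4 of the 6 tested rose with EPZ5676, 5 rose with MI-2-2, and 3 fell with iBET. Of all genes 18.7% rose with EPZ5676, 20.2% rose with MI-2-2 and 7.54% fell with iBET. Il1rn, which encodes the antagonist of the IL-1 receptor, stood at 14.1 and 6.33 CPM in DMSO, 38.4 and 50.6 with MM-401, 165 and 230 with EPZ5676, 314 and 415 with MI-2-2, and 3.54 and 4.21 with iBET. The groups did not overlap. Il1rn rose by 4.27 ± 0.39 (log2, SE) with EPZ5676 (adjusted p = 0.000568), a 19.3-fold change, and by 5.15 ± 0.41 with MI-2-2 (adjusted p = 0.000338), a 35.5-fold change. Without DMSO replicate 2 these were 3.83 and 4.72, and without DMSO replicate 1 4.97 and 5.85, all called. With iBET it fell by 1.40 ± 0.38 on the log2 scale (adjusted p = 0.0477), a call lost without any library other than DMSO replicate 2, with adjusted p up to 0.226, and without DMSO replicate 1 it was -0.70. With MM-401 the log2 difference was 2.12 ± 0.36 (adjusted p = 0.223), and both MM-401 libraries lay above both DMSO libraries.

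Il18, the gene of a cytokine released in active form after cleavage by caspase-1, was near the limit of detection outside EPZ5676 and MI-2-2. It stood at 0.350 and 0.192 CPM in DMSO, 1.01 and 0.882 with MM-401, 5.48 and 9.56 with EPZ5676, 11 and 17.9 with MI-2-2, and 0.0884 and 0.0765 with iBET, where 4 reads were counted in all. The rise was 4.74 ± 0.48 (log2) with EPZ5676 (adjusted p = 0.000645) and 5.68 ± 0.49 with MI-2-2 (adjusted p = 0.000456), or 26.8-fold and 51.4-fold. The iBET difference of -1.68 ± 0.64 did not pass (adjusted p = 0.115).

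Il1f9 encodes IL-36 gamma. Its level was 64.3 and 21.3 CPM in DMSO, 50.4 and 85.3 with MM-401, 91.1 and 118 with EPZ5676, 175 and 237 with MI-2-2, and 5.61 and 4.09 with iBET. MM-401 overlapped DMSO and the other conditions did not. It rose with MI-2-2 by 2.26 ± 0.49 (adjusted p = 0.00876) and fell with iBET by 3.15 ± 0.53 on the log2 scale (adjusted p = 0.0111), an 8.85-fold fall that was lost without either iBET library (adjusted p up to 0.102). The rise with MI-2-2 was 3.28 and the fall with iBET 4.38-fold without DMSO replicate 1, and without DMSO replicate 2 they were 1.71 and 13.3-fold, all called. With EPZ5676 the difference of 1.29 ± 0.48 did not pass (adjusted p = 0.0664). It was 2.30 and passed without DMSO replicate 1 (adjusted p = 0.00213), and 0.73 without DMSO replicate 2 (adjusted p = 0.135).

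Il1a, for IL-1 alpha, stood at 0.779 and 0.431 CPM in DMSO, 0.592 and 0.378 with MM-401, 2.67 and 2.31 with EPZ5676, 3.95 and 6.65 with MI-2-2, and 0.265 and 0.268 with iBET. It rose by 2.02 ± 0.44 with EPZ5676 (adjusted p = 0.0100) and by 3.11 ± 0.45 with MI-2-2 (adjusted p = 0.00185). Il1b, for IL-1 beta, remained under 5 CPM in every library, and its range was 0.234 to 0.959 CPM in DMSO, 2.82 to 4.61 over the EPZ5676 and MI-2-2 libraries and 0.0884 to 0.115 with iBET. Its rise was 2.66 ± 0.62 with EPZ5676 (adjusted p = 0.0129), lost without EPZ5676 replicate 1 (adjusted p = 0.0658), and 2.71 ± 0.62 with MI-2-2 (adjusted p = 0.0108), lost without MI-2-2 replicate 2 (adjusted p = 0.0605). Against DMSO replicate 1 alone these rises were 3.99 and 4.05, and against DMSO replicate 2 alone 1.95 and 2.01. Il33, the gene of an alarmin, had 5 reads with iBET and 79 in DMSO, of which 65 were in replicate 2. Its difference with iBET of -4.07 ± 0.95 on the log2 scale (adjusted p = 0.0300) was called, and the call was lost without DMSO replicate 2 (-2.35, adjusted p = 0.0549) and without either MM-401 or either iBET library (adjusted p up to 0.184).

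**Figure D3:**
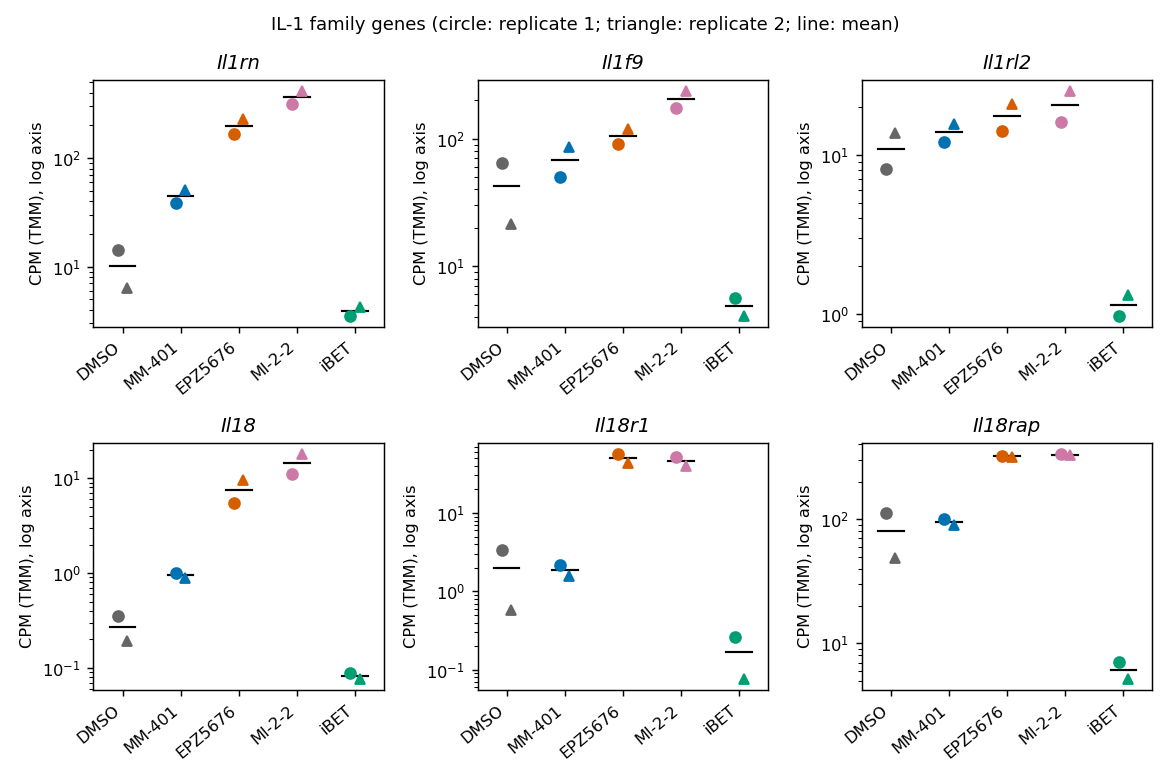
TMM-scaled CPM on a log axis of 6 IL-1 family genes in the 5 conditions, with replicate 1 as a circle, replicate 2 as a triangle and the mean as a line. In each panel both iBET points are the lowest, and the EPZ5676 and MI-2-2 points of Il1rn, Il18, Il18r1 and Il18rap lie above every DMSO point.

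Of the 7 tested receptor and binding protein genes of the family, 4 rose with EPZ5676 and 3 with MI-2-2, and with iBET 1 rose and 3 fell, where 18.7%, 20.2% and 6.38% of all genes rose and 7.54% fell with iBET. Il18rap encodes the accessory chain of the IL-18 receptor and stood at 111 and 48.5 CPM in DMSO, 101 and 90.3 with MM-401, 324 and 317 with EPZ5676, 333 and 330 with MI-2-2, and 7.12 and 5.17 with iBET. It rose 4.01-fold with EPZ5676 (log2 2.00 ± 0.34, adjusted p = 0.00354) and 4.15-fold with MI-2-2 (2.05 ± 0.34, adjusted p = 0.00304). It was 13.0-fold lower with iBET (log2 -3.71 ± 0.38, adjusted p = 0.00265). All of these calls held without each of the 10 libraries in turn. Against DMSO replicate 2 alone the rises were 2.73 and 2.78 and the iBET difference -2.98, and against DMSO replicate 1 alone they were 1.55, 1.61 and -4.18.

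Il18r1, for the chain that binds IL-18, stood at 3.35 and 0.575 CPM in DMSO, 2.20 and 1.55 with MM-401, 55.8 and 43.5 with EPZ5676, 51.1 and 40.2 with MI-2-2, and 0.265 and 0.0765 with iBET. The rise was 24.8-fold with EPZ5676 (log2 4.63 ± 0.67, adjusted p = 0.00198) and 22.7-fold with MI-2-2 (4.51 ± 0.67, adjusted p = 0.00199). Without DMSO replicate 1 it was 6.42 and 6.30 on the log2 scale, and without DMSO replicate 2 3.92 and 3.80. The fall with iBET, -3.56 ± 0.89 (adjusted p = 0.0378), rested on 8 reads against 98 and was lost without any library other than DMSO replicate 2, with adjusted p up to 0.210. It was -1.77 without DMSO replicate 1, -4.30 without DMSO replicate 2, and -4.61 and -2.89 without iBET replicate 1 and 2. Il18bp encodes the soluble protein that binds and blocks IL-18. It was at 4.67 and 3.31 CPM in DMSO, 6.81 and 7.48 with MM-401, 10.1 and 15.3 with EPZ5676, 12.6 and 14.1 with MI-2-2, and 5.52 and 4.86 with iBET. It rose by 1.67 ± 0.28 with EPZ5676 (adjusted p = 0.00333) and 1.74 ± 0.28 with MI-2-2 (adjusted p = 0.00268), and the iBET difference of 0.38 did not pass. The genes of IL-18, both chains of its receptor and its binding protein were all called higher with EPZ5676 and with MI-2-2.

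Il1rl2, for the receptor of IL-36, differed only with iBET among the comparisons with DMSO. It stood at 8.10 and 13.6 CPM in DMSO, 12.0 and 15.6 with MM-401, 14.2 and 20.8 with EPZ5676, 16 and 25.2 with MI-2-2, and 0.972 and 1.30 with iBET. The iBET libraries were 9.47-fold lower than DMSO (log2 -3.24 ± 0.40, adjusted p = 0.00438), also without each library in turn. Without DMSO replicate 2 the differences with EPZ5676 (1.13, adjusted p = 0.0438) and MI-2-2 (1.38, adjusted p = 0.0213) also passed. Il1rap, for the chain that the receptors of IL-1, IL-33 and IL-36 share, was at 42.4 and 35.6 CPM in DMSO, 38.9 and 44.5 with MM-401, 34.0 and 39.9 with EPZ5676, 39.2 and 40.3 with MI-2-2, and 57.2 and 56.1 with iBET. Its rise with iBET of 0.54 ± 0.14 (adjusted p = 0.0436) was lost without any library other than DMSO replicate 1 (adjusted p up to 0.191).

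The decoy receptor gene Il1r2 had the most reads of the 46 genes and no call. Its level was 124 and 7.43 CPM in DMSO, 58.4 and 40.2 with MM-401, 432 and 349 with EPZ5676, 367 and 253 with MI-2-2, and 85.4 and 35.5 with iBET. All EPZ5676 and MI-2-2 libraries lay above both DMSO libraries. The log2 difference was 2.57 ± 1.01 with EPZ5676 (adjusted p = 0.0782) and 2.24 with MI-2-2 (adjusted p = 0.107). Without DMSO replicate 1 it was 5.72 and 5.39, both called, and without DMSO replicate 2 the EPZ5676 difference of 1.68 was called (adjusted p = 0.0410). Il1r1, the signaling receptor of IL-1, was low, with 24 reads in DMSO and 84 with EPZ5676. Its rise of 1.91 ± 0.62 (adjusted p = 0.0420) was lost without DMSO replicate 1 and without each MM-401, EPZ5676 or iBET library (adjusted p up to 0.209). Il1rl1, for the IL-33 receptor ST2, was not tested. It had no read in DMSO, MM-401 or iBET, 13 with EPZ5676 and 16 with MI-2-2, at least 4.82-fold and 4.92-fold higher than a floor of 3 reads over the DMSO group. In the RefSeq gene order, Il1r2, Il1r1, Il1rl2, Il1rl1, Il18r1 and Il18rap are neighbors on chromosome 1 with 0 protein-coding genes between them, so these 6 share a region.

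**Figure D4:**
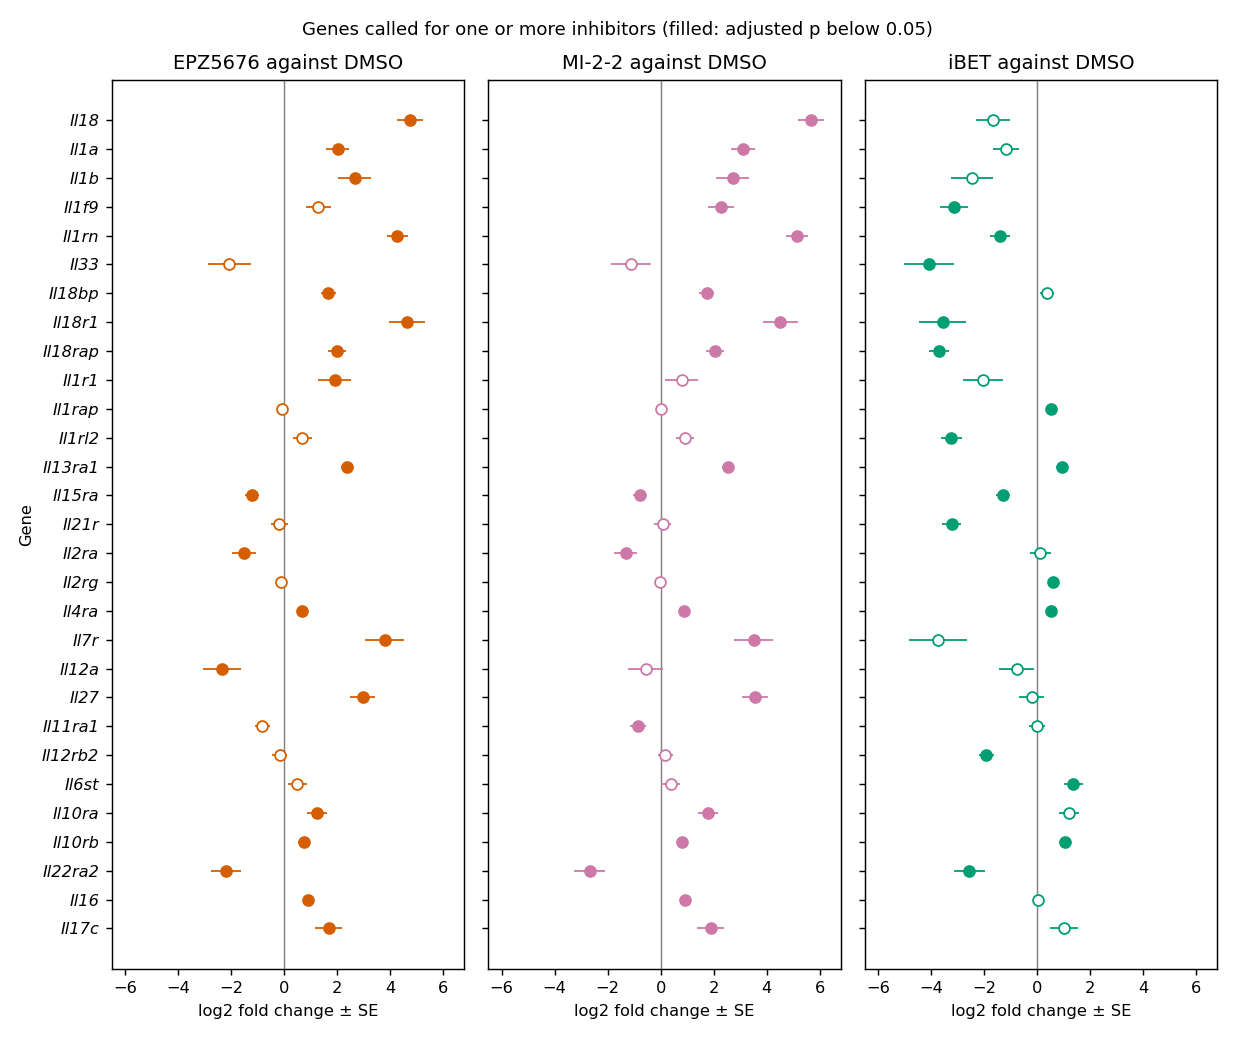
Log2 fold change against DMSO, with SE bars, of the 29 interleukin genes called against DMSO for at least 1 inhibitor, in panels for EPZ5676, MI-2-2 and iBET. Filled points have an adjusted p below 0.05. Il18, Il1rn, Il18r1 and Il7r lie beyond 3 with EPZ5676 and MI-2-2, and the same rows lie below 0 with iBET.

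Genes of the IL-1 pathway with other names were also read from a list of 22 (adaptors, kinases, NF-kB and inflammasome genes). With EPZ5676, 9 rose and 0 fell, with MI-2-2 14 rose and 1 fell, and with iBET 1 rose and 2 fell. The shares of all genes called were 38.1%, 41.4% and 13.9%, with 18.7%, 20.2% and 6.38% higher and 19.4%, 21.2% and 7.54% lower. The median log2 fold change of the list was 0.38, 0.58 and 0.11. Nfkbia, the inhibitor of NF-kB that is itself an NF-kB target, stood at 52.1 and 34.4 CPM in DMSO, 286 and 371 with EPZ5676, 244 and 273 with MI-2-2, and 82.4 and 70.5 with iBET. It rose by 2.92 ± 0.23 (adjusted p = 0.000380), 2.58 ± 0.23 (adjusted p = 0.000533) and 0.82 ± 0.22 (adjusted p = 0.0452), respectively. Nlrp3, the inflammasome sensor, was at 7.20 and 18.8 CPM in DMSO, 35.7 and 33.0 with EPZ5676 and 57.9 and 83.0 with MI-2-2, and rose by 1.41 ± 0.47 (adjusted p = 0.0461) and 2.44 ± 0.48 (adjusted p = 0.00590). Pycard (log2 0.93 and 0.85), Irak3 (1.08 and 1.06) and Myd88 (0.79 and 0.83) rose with both. Casp1, which cleaves pro-IL-18, did not pass with EPZ5676 (0.27, adjusted p = 0.297), MI-2-2 (0.53, adjusted p = 0.0557) or iBET (0.67, adjusted p = 0.0539).

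Receptors of the common gamma chain group, with those of IL-3, IL-4 and IL-13, did not move together. Of the 8 tested, 3 rose and 2 fell in every comparison of EPZ5676, MI-2-2 or iBET with DMSO. Of all genes 18.7%, 20.2% and 6.38% rose and 19.4%, 21.2% and 7.54% fell. The gene of the IL-3 receptor alpha chain, Il3ra, matters here because the cells grew in IL-3. It was at 74.2 and 26.3 CPM in DMSO, 55 and 43.7 with MM-401, 59.1 and 49.1 with EPZ5676, 64.4 and 47.3 with MI-2-2, and 56.8 and 48.6 with iBET. All inhibitor libraries lay between the 2 DMSO libraries, and the log2 differences did not pass for EPZ5676 (0.11), MI-2-2 (0.15) or iBET (0.07). Against DMSO replicate 2 alone they were 1.05 (adjusted p = 0.00997), 1.09 (adjusted p = 0.00771) and 1.01 (adjusted p = 0.0213).

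The beta chains that pair with it were higher with all of these inhibitors except MM-401. Csf2rb, shared by IL-3, IL-5 and GM-CSF, stood at 332 and 249 CPM in DMSO, 355 and 328 with MM-401, 691 and 521 with EPZ5676, 658 and 603 with MI-2-2, and 695 and 495 with iBET. The rises were 1.06 ± 0.22 (adjusted p = 0.00847), 1.12 ± 0.22 (adjusted p = 0.00638) and 1.04 ± 0.22 (adjusted p = 0.0234). Csf2rb2, a closely related copy used by IL-3 alone, was at 47.1 and 38.9 CPM in DMSO, 65.6 and 60.2 with MM-401, 159 and 133 with EPZ5676, 189 and 180 with MI-2-2, and 88.0 and 66.8 with iBET. Its rises were 1.76 ± 0.17 (adjusted p = 0.000630), 2.10 ± 0.17 (adjusted p = 0.000407) and 0.85 ± 0.17 (adjusted p = 0.0187). The split of reads between these near-identical copies is as the authors counted them. With MM-401 the differences were 0.23 ± 0.22 for Csf2rb and 0.55 ± 0.17 for Csf2rb2 (adjusted p = 0.745 and 0.333).

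Il4ra and Il13ra1 encode the 2 chains of the receptor that binds both IL-4 and IL-13. Il4ra stood at 74.6 and 81.4 CPM in DMSO, 78.3 and 82.4 with MM-401, 124 and 127 with EPZ5676, 143 and 141 with MI-2-2, and 105 and 117 with iBET. It rose 1.61-fold with EPZ5676 (log2 0.69 ± 0.10, adjusted p = 0.00241), 1.82-fold with MI-2-2 (0.86 ± 0.10, adjusted p = 0.00103) and 1.43-fold with iBET (0.52 ± 0.10, adjusted p = 0.0191). Il13ra1 stood at 9.11 and 10.7 CPM in DMSO, 8.79 and 6.34 with MM-401, 58.8 and 44.7 with EPZ5676, 61.4 and 53.6 with MI-2-2, and 16.7 and 21 with iBET. Its rise was 5.22-fold (log2 2.39 ± 0.23, adjusted p = 0.000630), 5.81-fold (2.54 ± 0.23, adjusted p = 0.000580) and 1.90-fold (0.93 ± 0.23, adjusted p = 0.0346). The DMSO libraries were close for both genes. The iBET rises were lost without either iBET library, to an adjusted p of up to 0.140 for Il4ra and 0.190 for Il13ra1, and that of Il13ra1 also without DMSO replicate 1 or either MI-2-2 library. Stat6, which acts below this receptor, rose by 1.12 with EPZ5676 (adjusted p = 0.00103) and 1.04 with MI-2-2 (adjusted p = 0.00117).

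Il7r, for the IL-7 receptor, stood at 0.234 and 1.01 CPM in DMSO, 0.761 and 0.798 with MM-401, 7.03 and 9.89 with EPZ5676, and 4.42 and 9.5 with MI-2-2. It rose by 3.79 ± 0.74 with EPZ5676 (adjusted p = 0.00632) and 3.51 ± 0.73 with MI-2-2 (adjusted p = 0.00751), by 5.17 and 4.90 without DMSO replicate 2, and by 3.07 and 2.79 without DMSO replicate 1. Without MI-2-2 replicate 2 its rise with MI-2-2 was 2.86 (adjusted p = 0.0495). With iBET 2 reads were counted against 27 in DMSO, a 14.1-fold lower level (95% interval from counting error 3.55 to 123), which did not pass (adjusted p = 0.0568). It passed without DMSO replicate 1 (adjusted p = 0.0132) and not without DMSO replicate 2 (adjusted p = 0.180).

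Other chains of the group were lower with some inhibitors. Il21r, for the IL-21 receptor, stood at 27.0 and 15.3 CPM in DMSO, 34.0 and 33.8 with MM-401, 21.2 and 16.1 with EPZ5676, 27.1 and 17.7 with MI-2-2, and 1.94 and 2.60 with iBET. Its fall with iBET was 9.28-fold (log2 -3.21 ± 0.36, adjusted p = 0.00313) and held without each library. In the RefSeq order Il21r and Il4ra are neighbors on chromosome 7, and they moved in opposite directions with iBET. Il15ra, for the IL-15 receptor alpha chain, stood at 38.4 and 25.8 CPM in DMSO, 32.7 and 29.2 with MM-401, 15.5 and 12.1 with EPZ5676, 22.2 and 14.9 with MI-2-2, and 13.7 and 12.6 with iBET. The falls were -1.22 ± 0.26 (adjusted p = 0.00935), -0.80 ± 0.26 (adjusted p = 0.0410) and -1.29 ± 0.26 (adjusted p = 0.0195) on the log2 scale. The first was lost without EPZ5676 replicate 2 (adjusted p = 0.0688) and the third without either iBET library (up to 0.137), and that with MI-2-2 held only without DMSO replicate 2 and without MI-2-2 replicate 1. Il2rg, the common gamma chain itself, stood at 69.4 and 63.6 CPM in DMSO, 78.8 and 74.7 with MM-401, 60.9 and 61.0 with EPZ5676, 62.3 and 69.6 with MI-2-2, and 102 in both iBET libraries. Its rise with iBET was 0.61 ± 0.11 (adjusted p = 0.0114), lost without either iBET library (up to 0.0834). Il2ra, the IL-2 receptor alpha chain, had 35 reads in DMSO, 11 with EPZ5676 and 15 with MI-2-2, and its falls of -1.5 (adjusted p = 0.0312) and -1.32 (adjusted p = 0.0403) were lost without any library other than DMSO replicate 1, up to 0.216.

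**Figure D5:**
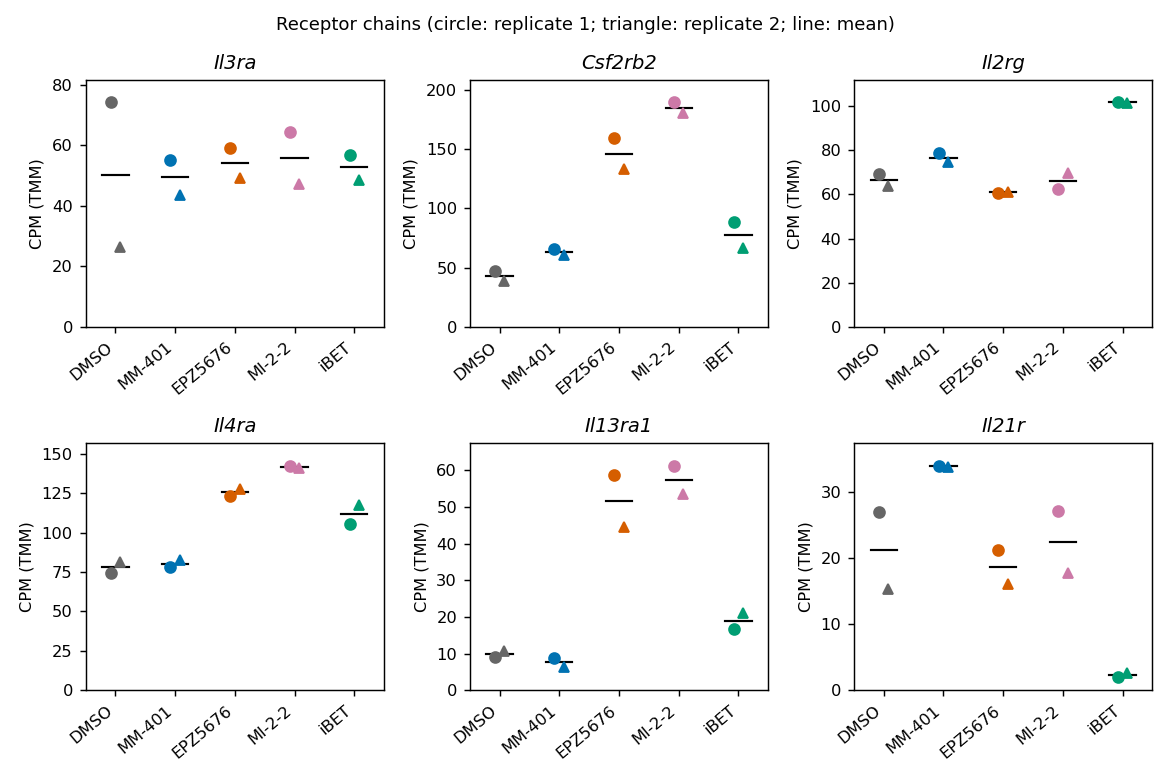
TMM-scaled CPM, on linear axes from 0, of the receptor chain genes Il3ra, Csf2rb2, Il2rg, Il4ra, Il13ra1 and Il21r in the 5 conditions (circle, replicate 1; triangle, replicate 2; line, mean). The inhibitor points of Il3ra lie between the 2 DMSO points at 74.2 and 26.3, those of Csf2rb2 all lie above DMSO, and Il21r is at 1.94 and 2.60 with iBET.

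Of 15 genes of the JAK-STAT pathway, all of them tested, 6 rose and 1 fell with EPZ5676 and 7 rose and 1 fell with MI-2-2. With iBET 6 rose and none was lower. The shares of all genes called were 38.1%, 41.4% and 13.9%, with 18.7%, 20.2% and 6.38% higher and 19.4%, 21.2% and 7.54% lower. Jak2, the kinase bound to the beta chains, rose by 1.39 with EPZ5676 (adjusted p = 0.000630), 1.53 with MI-2-2 (adjusted p = 0.000533) and 0.57 with iBET (adjusted p = 0.0314). Socs3, a feedback inhibitor, rose by 1.83 (adjusted p = 0.0186), 2.07 (adjusted p = 0.0107) and 1.81 (adjusted p = 0.0426). Socs2 and Cish, feedback genes below STAT5, rose with iBET, by 1.51 (adjusted p = 0.0157) and 1.43 (adjusted p = 0.0403). Stat5a was the member that fell, by -0.71 with EPZ5676 (adjusted p = 0.00319) and -0.52 with MI-2-2 (adjusted p = 0.0103). Of 15 receptor chains and ligand subunits with other names, 11 could be tested, and 5 rose and 1 fell with EPZ5676, 7 rose and 0 fell with MI-2-2, and 2 rose and 2 fell with iBET, beside the same shares of all genes. With MM-401 none of these genes was called.

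Ligands and receptors of the IL-6 and IL-12 families changed gene by gene. Il27, for a subunit of IL-27, stood at 1.17 and 0.527 CPM in DMSO, 0.972 and 0.882 with MM-401, 8.44 and 4.94 with EPZ5676, 12.6 and 7.63 with MI-2-2, and 0.751 and 0.727 with iBET. It rose 7.77-fold with EPZ5676 (log2 2.96 ± 0.47, adjusted p = 0.00286) and 11.7-fold with MI-2-2 (3.55 ± 0.48, adjusted p = 0.00149). The rises were 12.6-fold and 19.0-fold without DMSO replicate 1, and without DMSO replicate 2 5.82-fold and 8.82-fold, all called. Its partner subunit Ebi3 stood at 39.1 and 17.5 CPM in DMSO, 62.8 and 65.5 with EPZ5676, 78.4 and 74.4 with MI-2-2, and 12.1 and 13.2 with iBET, and rose by 1.18 (adjusted p = 0.0196) and 1.43 (adjusted p = 0.00855) and fell with iBET (-1.16, adjusted p = 0.0462). The genes of both subunits were called higher with EPZ5676 and MI-2-2.

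Il12a, for the p35 subunit of IL-12, was a gene whose direction hung on the DMSO library. It stood at 12.0 and 1.97 CPM in DMSO, 12.3 and 10.2 with MM-401, 1.65 and 1.08 with EPZ5676, 4.81 and 4.68 with MI-2-2, and 3.89 and 4.29 with iBET. The fall with EPZ5676 was -2.36 ± 0.72 (adjusted p = 0.0339) and was kept only without DMSO replicate 2, where it was -3.11. The difference was -0.52 without DMSO replicate 1 (adjusted p = 0.218). Against DMSO replicate 1 alone MI-2-2 was lower by 1.30 on the log2 scale (log2 -1.30, adjusted p = 0.00900) and iBET by 1.55 (-1.55, adjusted p = 0.00997), and against DMSO replicate 2 alone MI-2-2 was higher (1.27, adjusted p = 0.0125) and so was iBET (1.06, adjusted p = 0.0451).

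Il6st, the gp130 chain, stood at 9.42 and 15.0 CPM in DMSO, 12.3 and 10.1 with MM-401, 23.1 and 11.4 with EPZ5676, 15.0 and 16.8 with MI-2-2, and 27.0 and 35.5 with iBET. It rose with iBET by 1.36 ± 0.36 (adjusted p = 0.0444), a call kept only without DMSO replicate 2 and without either EPZ5676 library. Il12rb2, an IL-12 receptor chain, stood at 11.3 and 8.05 CPM in DMSO, 12.0 and 7.69 with MM-401, 9.02 and 8.19 with EPZ5676, 10.4 and 11.5 with MI-2-2, and 2.70 and 2.45 with iBET. Its fall with iBET was 3.77-fold (log2 -1.91 ± 0.29, adjusted p = 0.00800), lost without either iBET library (up to 0.0745). Il11ra1, for the IL-11 receptor and with a near-identical copy in the mouse genome, stood at 15.2 and 25.2 CPM in DMSO, 19.0 and 21.7 with MM-401, 8.68 and 14.2 with EPZ5676, 11.2 and 10.9 with MI-2-2, and 19.4 and 20.9 with iBET. Its fall with MI-2-2 of -0.87 ± 0.30 (adjusted p = 0.0465) was kept only without DMSO replicate 1 and without either EPZ5676 library.

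Receptor chains of the IL-10 family rose or fell by chain. Il10rb, the chain shared by IL-10, IL-22 and interferon lambda, stood at 80.3 and 81.2 CPM in DMSO, 108 and 123 with MM-401, 108 and 165 with EPZ5676, 118 and 163 with MI-2-2, and 158 and 176 with iBET. The rises were 0.76 ± 0.22 with EPZ5676 (adjusted p = 0.0302), 0.80 ± 0.22 with MI-2-2 (adjusted p = 0.0231) and 1.05 ± 0.22 with iBET (adjusted p = 0.0224). The first was kept only without EPZ5676 replicate 1 and without either MI-2-2 library, the next was lost without MI-2-2 replicate 2 (adjusted p = 0.149) and the last without either iBET library (up to 0.132). Il10ra, the chain that binds IL-10, stood at 7.87 and 8.58 CPM in DMSO, 5.79 and 2.90 with MM-401, 25.5 and 13.1 with EPZ5676, 29.7 and 27.1 with MI-2-2, and 17.6 and 19.8 with iBET. It rose by 1.79 ± 0.38 with MI-2-2 (adjusted p = 0.00797) and by 1.23 ± 0.38 with EPZ5676 (adjusted p = 0.0346). The EPZ5676 call was kept only without either MM-401 library and without EPZ5676 replicate 2, and the difference with iBET of 1.18 did not pass (adjusted p = 0.0728).

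Il22ra2 encodes a soluble protein that binds and blocks IL-22. It stood at 10.5 and 42.8 CPM in DMSO, 8.12 and 9.20 with MM-401, 6.16 and 5.46 with EPZ5676, 4.86 and 3.43 with MI-2-2, and 4.46 and 4.59 with iBET. All 8 inhibitor libraries lay below both DMSO libraries. The falls were -2.19 ± 0.56 (adjusted p = 0.0182), -2.68 ± 0.57 (adjusted p = 0.00820) and -2.55 ± 0.57 (adjusted p = 0.0258), and without DMSO replicate 2 they were -0.82, -1.30 and -1.21, all called. They were lost without either EPZ5676 library (up to 0.103), without MI-2-2 replicate 2 (0.0662) and without either iBET or either MM-401 library (up to 0.156), respectively.

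Il16, for a chemoattractant cytokine, stood at 114 and 91.2 CPM in DMSO, 115 and 105 with MM-401, 180 and 204 with EPZ5676, 198 and 192 with MI-2-2, and 106 and 103 with iBET. It rose by 0.90 ± 0.13 with EPZ5676 (adjusted p = 0.00214) and 0.93 ± 0.13 with MI-2-2 (adjusted p = 0.00182), with DMSO, MM-401 and iBET overlapping. Il17c had 13 reads in DMSO, 39 with EPZ5676 and 54 with MI-2-2, and its rises of 1.69 (adjusted p = 0.0323) and 1.88 (adjusted p = 0.0190) were lost without several libraries (in 8 and 3 of the 10 fits). Among the genes with no call, Il17ra, Il6ra and Il20rb were higher in replicate 2 than in replicate 1 of every condition. Whether this bore on the missing calls was not tested. Il17ra, for the shared IL-17 receptor chain, stood at 31.5 and 115 CPM in DMSO, 60.7 and 87.6 with MM-401, 96.9 and 145 with EPZ5676, 88.8 and 195 with MI-2-2, and 230 and 281 with iBET. Its iBET difference of 1.81 ± 0.59 (adjusted p = 0.0806) was 3.02 and called without DMSO replicate 2 (adjusted p = 0.00985), and 1.16 without DMSO replicate 1 (adjusted p = 0.108). That of Il6ra, the IL-6 receptor, was 1.63 (adjusted p = 0.113) and 2.79 without DMSO replicate 2 (adjusted p = 0.0187), and without DMSO replicate 1 it was 1.00 (adjusted p = 0.209). Il12rb1 ranged over the libraries from 2.18 to 18.0 CPM, Il15 from 2.60 to 6.57 and Il20rb from 1.99 to 12.8. Il31ra had 40 reads in DMSO, all in replicate 2. Its reads numbered 16 in the MM-401 group, 49 in the iBET group, 1 in the EPZ5676 group and 0 in the MI-2-2 group. The 8 untested genes other than Il1rl1 had between 23 and 77 reads in all.

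EPZ5676 and MI-2-2 were compared directly to see whether inhibition of DOT1L and of MENIN differed for these genes. In edgeR none of the 37 passed an adjusted p of 0.05, and 0.0154% of all genes did. At an unadjusted p under 0.05 there were 4 (10.8%, against 7.22% of all genes), all lower with EPZ5676, and DESeq2 called 0. Il1rn differed by -0.88 ± 0.34 (adjusted p = 0.629), Il1a by -1.09 ± 0.41 (adjusted p = 0.613), Il18 by -0.94 ± 0.37 (adjusted p = 0.656) and Il12a by -1.79 ± 0.71 (adjusted p = 0.651). For each of these genes both EPZ5676 libraries lay below both MI-2-2 libraries. That is no separate evidence, because the genes were picked by their unadjusted p between the same libraries. Without DMSO replicate 1, without DMSO replicate 2 and without either DMSO library, Il12a was called (adjusted p = 0.0338, 0.0331 and 0.0365). The missing calls do not show that the inhibitors act alike on these genes.

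MM-401 was compared with DMSO and with each other inhibitor to ask how blocking MLL1 and WDR5 differed from the rest. No MM-401 difference from DMSO passed. The 6 genes with an unadjusted p under 0.05 were Il1rn (2.12), Il18 (1.76), Il18bp (0.84), Il10rb (0.52), Il10ra (-0.92) and Il22ra2 (-1.62), with adjusted p from 0.223 to 0.447. DESeq2 called Il1rn. Without DMSO replicate 1, 7 were called, where 10.2% of all genes were (5.96% higher, 4.28% lower). Of these, Il1rn (2.82, adjusted p = 0.00270), Il1r2 (2.73), Il12a (2.52), Il1f9 (1.68) and Il18rap (0.99) were higher, and Il22ra2 (-2.30) and Il33 (-2.07) lower. Without DMSO replicate 2 no interleukin gene and 0% of all genes were called.

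Against EPZ5676, MM-401 gave 17 calls, 4 higher and 13 lower (33.3% of all genes called, 16.6% higher and 16.7% lower). Against MI-2-2 it gave 16, 1 higher and 15 lower (35.7%, with 17.6% and 18%). Il13ra1 was 6.83-fold lower than with EPZ5676 (log2 -2.77 ± 0.24, adjusted p = 0.000669) and 7.59-fold lower than with MI-2-2 (-2.92 ± 0.24, adjusted p = 0.000743). Il18r1 was 26.4-fold and 24.3-fold lower (adjusted p = 0.00254 and 0.00260), Il18 7.89-fold and 15.1-fold lower (0.00243 and 0.00131) and Il1rn 4.44-fold and 8.18-fold lower (0.00406 and 0.00165). Il1b was 13.3-fold and 13.9-fold lower (0.00561 and 0.00499), calls lost without MM-401 replicate 2 (0.0588 and 0.0535). Genes higher with MM-401 than with EPZ5676 were Il12a (8.20-fold), Il2ra (4.25-fold), Il15ra (2.25-fold) and Il2rg (1.26-fold), and each of these was lost without MM-401 replicate 1 or 2. In the fits without a library, 8 calls held throughout against EPZ5676 and 9 against MI-2-2.

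Against iBET, MM-401 gave 16 calls, 11 higher and 5 lower (11.4% of all genes called, 5.96% higher and 5.48% lower). Il18rap was 15.6-fold higher (log2 3.97 ± 0.38, adjusted p = 0.00194), Il21r 14.8-fold (3.89 ± 0.36, adjusted p = 0.00179), Il1rl2 12.1-fold (3.59 ± 0.40, adjusted p = 0.00351) and Il1rn 11.5-fold (3.52 ± 0.39, adjusted p = 0.00354). These 4 held without each library, and the other 12 did not. Il1f9 was 14.0-fold higher (adjusted p = 0.00666) and was lost without either iBET library (up to 0.0770). The lower genes were Il6st, Il10ra, Il13ra1, Il4ra and Il2rg, by 2.79-fold, 4.30-fold, 2.49-fold, 1.39-fold and 1.33-fold. Without MM-401 replicate 1 the difference of Il10ra was -2.69 on the log2 scale, against -2.10 with all libraries. These comparisons use no DMSO library as an arm.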

How the data were processed

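The samples were RNA libraries of MAF9 cells, 2 for each of 5 conditions, and were assigned to conditions from their labels. The authors deposited read counts per gene symbol without normalization. The submitters' processing notes name TopHat2, Subread, DESeq and the build mm9, without versions or roles. The labels name a TruSeq library kit. The handling of strand and of multiply matching reads is not given in the sources used here. Interleukin genes and all gene lists were chosen with earlier results of these data known.

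The quasi-likelihood test of edgeR 4.0.16 (glmQLFit, glmQLFTest) was run in R 4.3.3 after filterByExpr and TMM scaling, in 1 fit of 10 libraries and 12971 genes, with Benjamini-Hochberg adjustment over all genes tested and a threshold of 0.05. The study listed changed genes by a 2-fold change in RPKM. All tests were two-sided, and SE is the size of the log2 fold change divided by the square root of F. The pipeline was run on simulated data with changes planted in the EPZ5676 libraries alone. The simulation held no DMSO library of a different origin. Levels are TMM-scaled CPM. The spread within groups used log2(CPM + 0.5). Where a group had 0 reads, the bound uses 3 reads over the group. A ratio from 1 to 3 reads has a 95% exact binomial interval. Both cover counting error only. Exon lengths and overlaps came from GENCODE M21 (all 46 symbols matched) on another build than mm9, so no position of a read is given. Gene order and promoters came from RefSeq on GRCm38.

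A gene whose mean reached 5 CPM in some condition and that had a call is given in every library, those without a call by their levels, and others by counts and ranges, or by name where 5 or fewer. Il3ra, Csf2rb and Csf2rb2 are given whatever their calls. Genes named in fits without a DMSO library, Il1rl1, Il31ra and the pathway genes named were chosen after their values were seen. Alternatives were DESeq2 1.42.0 size factors, total-count scaling, the DESeq2 test, no filter, a replicate block and leaving out each library.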

Additional observations from a re-analysis of the deposited data

How the results depend on the processing

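Of the 105 calls of interleukin genes over the 8 comparisons, 102 were kept with DESeq2 size factors, 97 with total-count scaling, 101 with the DESeq2 test, 97 with no filter on low counts and 65 to 98 without 1 of the libraries. None of the 105 changed sign under any of these. Counts of calls that moved by more than 1.5 times were those for MM-401 against DMSO with the DESeq2 test (1 in place of 0) and, without 1 library, for MM-401 against DMSO (0 to 7), MI-2-2 against DMSO (13 to 25), iBET against DMSO (3 to 18), EPZ5676 against MI-2-2 (0 to 1), MM-401 against EPZ5676 (8 to 22), against MI-2-2 (9 to 23) and against iBET (4 to 21). For EPZ5676 against DMSO the range was 14 to 23. The count for iBET against DMSO moved without each iBET library and without each MM-401 library. That for MI-2-2 against DMSO moved without MI-2-2 replicate 2, and that for MM-401 against DMSO without DMSO replicate 1. The count for EPZ5676 against MI-2-2 moved without each DMSO library. That for MM-401 against EPZ5676 moved without each MM-401 library, and that against MI-2-2 without MM-401 replicate 2. For MM-401 against iBET it moved without each MM-401 library and without each iBET library. Leaving out both DMSO libraries, an alternative chosen after seeing the data, gave 1 call for EPZ5676 against MI-2-2 in place of 0 and kept all 49 calls of the comparisons between inhibitors. The fits without 1 library have fewer samples and test 40 or 41 interleukin genes in place of 37, and other causes of lost calls were not tested.

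The labels give each condition the replicate numbers 1 and 2 and do not say that a number marks a batch, and each comparison has only 2 pairs, so the numbers were not taken to pair the samples. Deviations of same-numbered libraries correlated with r from 0.303 to 0.704 over the 10 pairs of conditions, which is a hint from the data and not from the design. With the replicate block 25 genes were called for EPZ5676 against DMSO in place of 20, 25 for MI-2-2 in place of 20 and 21 for iBET in place of 16, 0 for MM-401 and for EPZ5676 against MI-2-2, and 20 for MM-401 against each of EPZ5676, MI-2-2 and iBET. All 105 calls were kept under the block. A gene at 1 read stood at 0.0365 to 0.0485 CPM, so changes in Il18, Il1b, Il7r and Il2ra at the lower end rest on few reads.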
